A study of Mus musculus with 12 samples.

Results

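The class 3 semaphorins, neuropilins and plexins were followed in Purkinje cells (PCs) and ventricular myocytes (VMs) from mice with and without *Ncam-1*. The members were chosen by name, with earlier results of these data known, as 4 ligands, 2 neuropilins and 3 plexins. Each symbol mapped to 1 Ensembl identifier, and they make 9 of the 48526 genes counted. The ligands were *Sema3a*, *Sema3c*, *Sema3d* and *Sema3f*, the neuropilins *Nrp1* and *Nrp2*, and the plexins *Plxna2*, *Plxna4* and *Plxnd1*. The 4 groups were the PCs and the VMs of *Ncam-1* WT mice and of *Ncam-1* KO mice, with 3 libraries each. All were sorted cells of adult mice, KO animals lacking *Ncam-1* in the whole body, and WT and KO mice alike carried the *Cntn2*-EGFP reporter, a BAC transgene in which *Cntn2* sequences drive GFP. The reporter line was kept on a CD1 background and the *Ncam-1* line on C57BL/6. Ventricles were digested by Langendorff perfusion, all cells were stained with 50 nM TMRM, a mitochondrial dye that marks cardiomyocytes, and PCs were taken as the cells positive for both dye and GFP and VMs as those positive for the dye alone. A PC library is therefore defined by the activity of the *Cntn2* reporter, and no source used here says whether a library came from 1 heart or several, so that p-values measure the spread between these libraries, which may be partly technical.

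Class 3 semaphorins are secreted guidance cues. Neuropilins bind them at the cell surface but have only a short intracellular tail, and the signal is passed on by a plexin of class A or D, whose cytoplasmic part acts on small GTPases and, through kinases and collapsin response mediator proteins, on the cytoskeleton. Neuropilins also bind VEGF and serve as co-receptors on blood and lymphatic endothelium. In the heart, SEMA3A is known as a repellent for sympathetic axons, and SEMA3C with PLXND1 for its part in the outflow tract.

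*Sema3a* was the member that differed most between the cell types. It was higher in PCs than in VMs of both genotypes, by 5.27 ± 0.50 on the log2 scale in WT and 2.55 ± 0.47 in KO (fold change ± SE, n = 3 against 3). *Nrp2* was higher in KO PCs by 2.40 ± 0.42, and in WT PCs by 1.04 ± 0.52 with overlap between the groups. With all 12 libraries in 1 fit, the KO adjusted p of *Sema3a* and of *Nrp2* was 0.135 by edgeR. Endothelial marker sums were also higher in PCs of both genotypes, and the part of endothelial cells in the *Nrp2* difference was not tested. *Sema3c* was higher in WT PCs by 1.95 ± 0.34, short of the adjusted threshold by edgeR with the filter on low counts. *Nrp1*, whose product binds SEMA3A, and the plexin *Plxna4* overlapped between PCs and VMs in both genotypes. No member differed between KO and WT at an adjusted p under 0.05 among the genes that passed the filter on low counts, although *Sema3a* and *Sema3c* were lower in KO PCs before adjustment.

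The promoters of the ligands that were higher in WT PCs are shown because the genes share a cell type difference yet their promoters differ in base composition. The window runs from 250 bases before to 50 bases after the RefSeq start site, 300 bases in all, on the plus strand of chromosome 5 in the RefSeq sequence of GRCm38.p6, and is written 5′ to 3′ with CG dinucleotides in capitals.
*Sema3a*, chr5:13396534-13396833: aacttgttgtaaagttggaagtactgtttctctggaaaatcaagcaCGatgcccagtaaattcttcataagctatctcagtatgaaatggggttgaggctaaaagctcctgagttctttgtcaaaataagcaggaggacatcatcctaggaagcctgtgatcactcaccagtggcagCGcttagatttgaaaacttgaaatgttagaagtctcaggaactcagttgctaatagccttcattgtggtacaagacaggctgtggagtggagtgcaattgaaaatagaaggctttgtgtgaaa
*Sema3c*, chr5:17574566-17574865: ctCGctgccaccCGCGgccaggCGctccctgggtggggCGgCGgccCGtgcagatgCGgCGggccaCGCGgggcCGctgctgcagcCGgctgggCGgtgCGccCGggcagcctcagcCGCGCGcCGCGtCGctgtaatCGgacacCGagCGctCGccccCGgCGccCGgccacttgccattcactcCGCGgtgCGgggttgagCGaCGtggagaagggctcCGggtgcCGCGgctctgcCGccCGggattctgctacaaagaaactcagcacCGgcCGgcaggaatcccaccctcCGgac
The *Sema3a* window was 41.3% G and C with 2 CG dinucleotides, and the *Sema3c* window 75.7% with 42. Over 32851 mouse promoters of the same length the medians were 52.7% and 7. The other members with a RefSeq window lay between 49.7% G and C (*Sema3d*) and 70.7% (*Nrp2*), with *Nrp1* at 64.0%, *Plxna2* at 64.7% and *Plxnd1* at 67.0%. *Sema3f* and *Plxna4* had no entry in the promoter table. The *Sema3a* and *Sema3c* windows were also searched on both strands for 4 short words. None of CCGGAA (ETS factors such as ETV1), AGGTGT (T-box factors), TNAAGTG (NKX2-5) or ACATGT (Iroquois factors such as IRX3) was in either window, nor in those of *Nrp1*, *Nrp2*, *Plxna2* and *Plxnd1*. These words occurred in 14.9%, 13.7%, 11.5% and 5.28% of all promoters. *Sema3d* held 1 match each to the ETS, T-box and NKX2-5 words, at -14, -211 and -179 bases from the start site. The *Sema3a* start site, at base 13396784, coincides with a transcript start of the GENCODE annotation, and that of *Sema3c* lies 50 bases from the nearest one. The *Sema3a* gene itself begins far upstream, at base 13125414, so that its window belongs to an internal start and not to the 5′ end of the gene. The *Sema3c* window lies near the start of its gene, at base 17574281. Which start sites these cells use was not tested.

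Read pairs counted on genes ranged from 13883427 to 42505705 per library. Mitochondrial genes took 79.0% to 91.3% of them, so that 1532393 to 6761356 counts per library were left for all other genes. Normalized counts below are counts divided by the effective library size (TMM) and brought to the geometric mean size of the 12 libraries. *Ncam1* had 34 to 116 counts in WT PCs and 0 to 1 in KO PCs. In VMs it had 0 to 9 counts in WT and 0 in every KO library, so that the genotype can be checked in PCs, while WT VM replicate 2, with 0 counts, could not be told from a KO. WT PC replicate 2 stood apart, with 63.9% of its read pairs not aligned against 18.8% to 24.7% elsewhere. *Cntn2*, the gene of the reporter, was at 237, 451 and 533 normalized counts in WT PC replicates 1, 2 and 3. In KO PCs it was at 38.67 and 49.2 in replicates 1 and 2 and at 452 in replicate 3, and in VMs at 2.22 to 8.99. KO PC replicates 1 and 2 were thus above every VM library in *Cntn2* but below every WT PC library. The same held for the sum over 10 Purkinje markers, *Cntn2* and *Ncam1* among them. It was 619, 1315 and 1467 in WT PCs, 265, 263 and 1035 in KO PCs and 70.6 to 171 in VMs. Sums over 8 cardiomyocyte markers were 331328 to 654471 normalized counts in all 12 libraries, with overlap between PCs and VMs. Markers of other cells also differed between the sorted populations. Sums over 10 endothelial markers were 528 to 1464 in PCs and 83.4 to 458 in VMs, those over 8 fibroblast markers 668 to 1676 and 72.1 to 421, those over 7 macrophage markers 266 to 696 and 14.1 to 144, and those over 7 markers of smooth muscle cells and pericytes 1004 to 2470 and 253 to 972. Markers of Schwann cells and neurons summed to 17.6 to 95.03 over 10 genes with overlap between PCs and VMs, and 5 or 6 of those genes, depending on the group, had no count in any of its libraries. In such bulk samples, fewer cells of a type and less RNA per cell cannot be told apart.

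**Figure D1:**
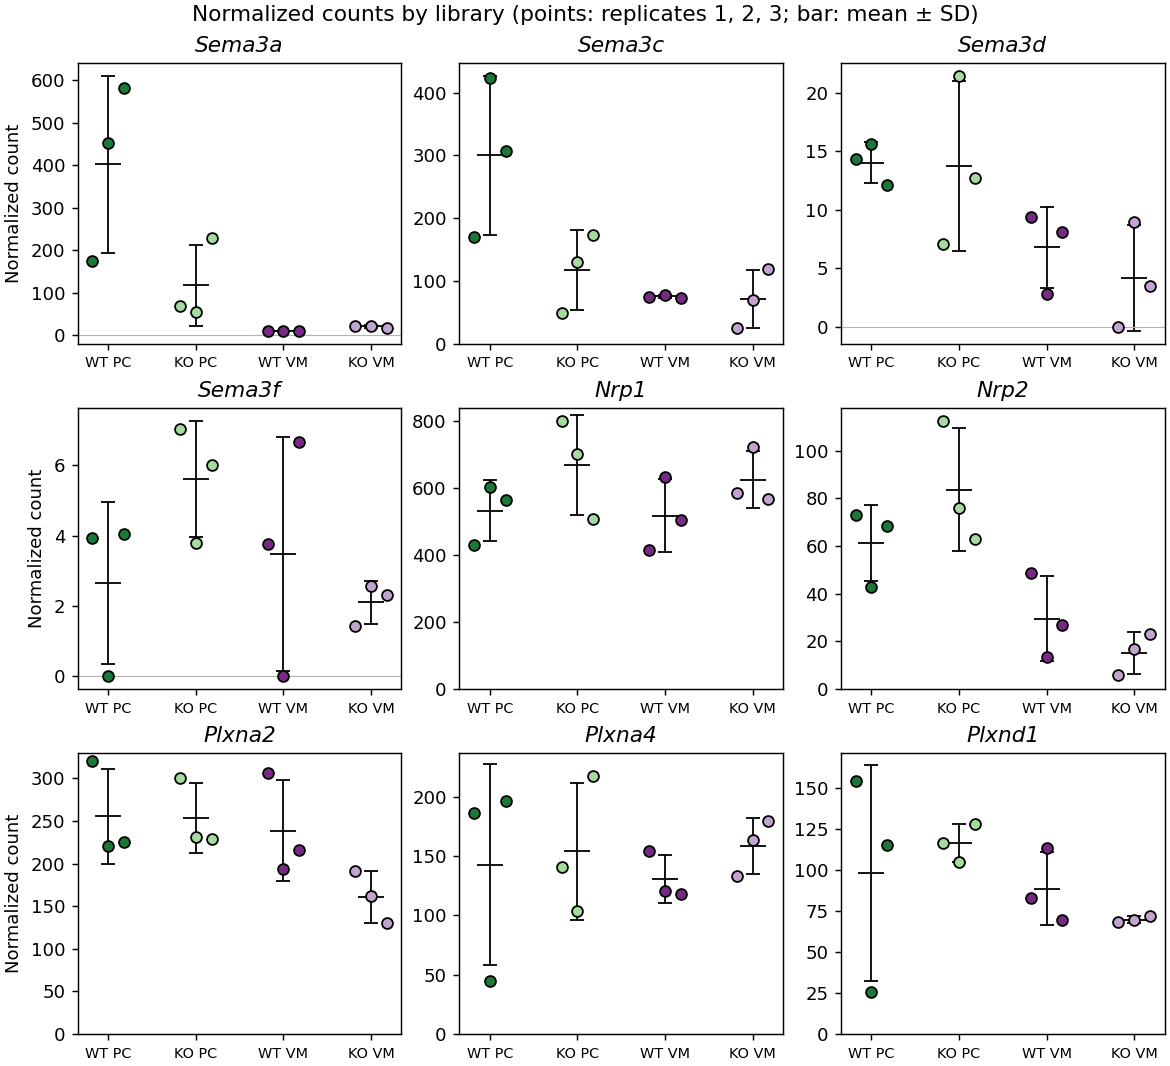
Normalized counts of the 9 members in each of the 12 libraries, in 4 groups of 3. Points are replicates 1, 2 and 3 from left to right and the bar is the mean ± SD, and each panel has its own axis. *Sema3a* lies at 54.3 to 581 in PCs and at 9.61 to 22.6 in VMs, whereas *Nrp1* spans 414 to 798 with all 4 groups overlapping.

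*Sema3a* (ENSMUSG00000028883, chr5:13125414-13602565, plus strand, GRCm38) encodes the ligand that binds NRP1. Its normalized counts were 174, 453 and 581 in WT PCs and 68.6, 54.3 and 228 in KO PCs. In VMs they were 10.3, 10.4 and 9.61 in WT and 22.6, 21.8 and 17.4 in KO. Every PC library was above every VM library. The lowest PC values were those of KO PC replicates 1 and 2, the libraries low in *Cntn2*. The VM values rest on 11 to 17 counts per library, and the PC values on 39 to 1005. In WT the difference was 5.27 ± 0.50 (log2, 95% interval 4.14 to 6.41), with an adjusted p of 0.0088 by the quasi-likelihood test of edgeR, after Benjamini-Hochberg adjustment across the 11822 genes tested, and *Sema3a* ranked 3rd by p. In KO it was 2.55 ± 0.47 (1.54 to 3.56), with an adjusted p of 0.0189 in the same test over 10779 genes, but of 0.135 by edgeR when all 12 libraries were put in 1 fit. Over both genotypes in 1 fit of the 12 libraries it was 3.92 ± 0.40, with an adjusted p of 0.000379 by edgeR, the smallest p of the 11323 genes tested. The two-sided exact permutation test of cell type within genotype gave p = 0.005, the smallest its 400 relabellings allow, whereas 3 against 3 libraries cannot go below 0.1. Left out in turn, each of the 3 WT VM libraries took the WT difference, then between 5.24 and 5.30, to an adjusted p of 0.136 to 0.219 by edgeR. In KO the adjusted p was 0.0611 to 0.0946 without KO PC replicate 3 or without any of the KO VM libraries, and without KO PC replicate 3 the difference was 1.56 ± 0.39. Without KO PC replicates 1 and 2 the KO difference was 3.47 ± 0.30, on 1 PC library whose spread is assumed to be that of the VMs.

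*Sema3c* (ENSMUSG00000028780, chr5:17574281-17730268, plus strand) encodes a ligand of both neuropilins. Its normalized counts were 170.4, 423 and 307 in WT PCs and 49.2, 130.04 and 174 in KO PCs. They were 75.0, 78.1 and 73.2 in WT VMs and 25.5, 69.3 and 119 in KO VMs. The WT groups were apart, with VMs within a narrow range, and the KO groups overlapped. The WT difference was 1.95 ± 0.34 (log2, 95% interval 1.17 to 2.72), past an unadjusted p of 0.05 but with an adjusted p of 0.155 by edgeR's quasi-likelihood test. The adjusted p was under 0.05 in 3 of 8 other fits (DESeq2, voom, and edgeR with no filter on low counts, the lowest at 6.28e-06) and without WT PC replicate 1 or 2. In KO it was 0.74 ± 0.44 (-0.18 to 1.67), with an adjusted p of 0.642 by edgeR. It was past an unadjusted p of 0.05 with no filter on low counts, with the replicate number as a block, and without KO PC replicate 1 (1.08) or KO VM replicate 3 (1.33). Over both genotypes it was 1.36 ± 0.34, with an adjusted p of 0.0625 by edgeR, and the exact permutation test within genotype gave p = 0.035. In 4 of 7 other fits, DESeq2 and voom among them, and in 4 of 12 omissions of a library the adjusted p was under 0.05.

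*Sema3d* and *Sema3f* were barely detected. *Sema3d* (ENSMUSG00000040254, chr5:12383385-12588948, plus strand), a ligand with known roles in the developing heart and vessels, was at 14.4, 15.6 and 12.1 in WT PCs and at 7.03, 21.5 and 12.7 in KO PCs. In VMs it was at 9.38, 2.82 and 8.14 in WT and at 0, 8.99 and 3.47 in KO. These values stand on 0 to 33 counts per library. The WT groups did not overlap, but the log2 difference of 0.996 ± 0.70 had an adjusted p of 0.833 by edgeR. Over both genotypes the log2 difference was 1.36 ± 0.59, past an unadjusted p of 0.05 but with an adjusted p of 0.383 by edgeR, and the exact permutation test within genotype gave p = 0.01. That difference stayed past the unadjusted threshold in 7 of 12 omissions of a library and was lost without WT PC replicate 1, KO PC replicate 2, WT VM replicate 2 or KO VM replicates 1 or 3, in a range from 1.06 to 1.93. *Sema3f* (ENSMUSG00000034684, chr9:107681500-107710475, minus strand), the ligand known for binding NRP2, had at most 9 counts in any library. It did not reach the mean normalized count of 5 required for a test in any comparison, and in KO VMs, with 1 to 2 counts, it was at or under the floor of 3 counts in every library. In WT it was at 3.92, 0 and 4.05 normalized counts in PCs and at 3.75, 0 and 6.66 in VMs, with overlap. In KO it was at 7.03, 3.79 and 6.01 in PCs, above the 1.41, 2.57 and 2.32 in VMs, and the exact permutation test gave p = 0.1, the smallest that 3 against 3 allow. *Sema3a*, *Sema3c* and *Sema3d* all lie on chromosome 5, between bases 12383385 and 17730268.

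*Nrp1* (ENSMUSG00000025810, chr8:128358604-128503363, plus strand), the neuropilin that binds SEMA3A and VEGF-A, was the most abundant member. Its normalized counts were 429, 603 and 562 in WT PCs, 798, 701 and 507 in KO PCs, 414, 631 and 505 in WT VMs and 586, 720.4 and 565 in KO VMs. All 4 groups overlapped. The log2 difference between PCs and VMs was 0.00 ± 0.24 (95% interval -0.55 to 0.56) in WT and 0.09 ± 0.17 (-0.27 to 0.46) in KO, and 0.07 ± 0.16 over both genotypes (-0.26 to 0.40, adjusted p = 0.926 by edgeR).

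*Nrp2* (ENSMUSG00000025969, chr1:62703285-62818695, plus strand), the neuropilin bound by SEMA3F, SEMA3C and VEGF-C, was at 72.8, 42.9 and 68.2 in WT PCs and at 112, 75.8 and 62.8 in KO PCs. In VMs it was at 48.8, 13.2 and 26.6 in WT and at 5.66, 16.7 and 23.2 in KO. The KO groups were far apart, while in WT the highest VM library lay above the lowest PC library, WT PC replicate 2. The difference was 2.40 ± 0.42 (log2, 95% interval 1.51 to 3.30) in KO, with an adjusted p of 0.0140 by edgeR's quasi-likelihood test, but of 0.135 with all 12 libraries in 1 fit. It was 1.04 ± 0.52 in WT (-0.12 to 2.21), with an adjusted p of 0.798 by edgeR. The WT difference was past an unadjusted p of 0.05 in 4 of 8 other fits (voom, no filter on low counts, the replicate block and all 12 libraries) and without WT PC replicate 2 (1.24) or WT VM replicate 1 (1.60). It was 0.69 without WT VM replicate 2, and its adjusted p was 0.11 or more in all of these fits. Over both genotypes it was 1.75 ± 0.36, with an adjusted p of 0.0235 by edgeR, and the exact permutation test within genotype gave p = 0.01. Without KO PC replicates 1 and 2 this became 1.54 ± 0.44 with an adjusted p of 0.252. Left out singly, KO PC replicate 1 or KO VM replicate 1 or 2 took the KO difference, then between 2.02 and 2.46, to an adjusted p of 0.0572 to 0.0619. KO PC replicates 1 and 2, WT VM replicates 2 and 3 and KO VM replicates 1 and 2 likewise took the difference over both genotypes, then between 1.53 and 1.78, to 0.0517 to 0.0859. The sums over endothelial markers and over smooth muscle and pericyte markers had the same highest and lowest libraries as *Nrp2*, though not every single marker did. The 10 endothelial markers summed to 788, 675 and 612 in WT PCs, 1464, 692 and 528 in KO PCs, 458, 232 and 238 in WT VMs and 83.4, 286 and 223 in KO VMs. KO PC replicate 1 was highest and KO VM replicate 1 lowest in this sum, in *Nrp2* and in the sum over smooth muscle and pericyte markers (2470 and 253). Fibroblast and macrophage sums were also lowest in KO VM replicate 1 (72.1 and 14.1), but highest in WT PC replicate 2. All 10 endothelial markers tested in WT and all 9 tested in KO had log2 fold changes above 0, with medians of 1.13 and 2.11. Smooth muscle and pericyte markers had medians of 0.81 and 2.15. In KO PC replicate 1 *Rgs5* held 1763 of their sum of 2470. *Kcnj8* of that list was highest in WT PC replicate 2 (105), and *Cspg4* lowest in WT VM replicate 1 (4.69). *Egfl7*, an endothelial marker, was also highest in WT PC replicate 2 (70.2). In WT *Myh11*, *Tagln* and *Pdgfrb* overlapped between PCs and VMs. The part of the cells marked by these lists in the *Nrp2* difference was not tested.

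*Plxna2* (ENSMUSG00000026640, chr1:194618218-194816869, plus strand), a signalling receptor for neuropilin-bound class 3 semaphorins, was at 319.9, 220.4 and 225 in WT PCs, at 301, 231 and 229 in KO PCs and at 306, 194 and 216 in WT VMs. KO VMs, at 191, 162 and 129.7, were below the other 3 groups. The log2 difference between PCs and VMs was 0.07 ± 0.27 in WT (adjusted p = 0.964 by edgeR) and 0.65 ± 0.20 in KO, past an unadjusted p of 0.05 but with an adjusted p of 0.173. Over both genotypes it was 0.38 ± 0.17, past the unadjusted threshold with an adjusted p of 0.420 by edgeR. It stayed past that threshold in 5 of 12 omissions of a library and was lost when mitochondrial genes were left out (0.35), and without WT PC replicate 1, KO PC replicates 1 or 3, WT VM replicates 2 or 3 or KO VM replicates 2 or 3, in a range from 0.25 to 0.49.

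*Plxna4* (ENSMUSG00000029765, chr6:32144268-32588192, minus strand), the plexin known from sympathetic and sensory neurons to signal for SEMA3A, was at 187, 44.9 and 196 in WT PCs and at 141, 104 and 217 in KO PCs. In VMs it was at 154, 120.5 and 118 in WT and at 133, 163 and 179 in KO. The groups overlapped in both genotypes, and the low value was that of WT PC replicate 2, with 23 counts. The log2 difference was 0.13 ± 0.48 in WT and -0.02 ± 0.25 in KO (95% intervals -0.94 to 1.21 and -0.55 to 0.50). Without WT PC replicate 2 the WT difference was 0.54, past an unadjusted p of 0.05, with an adjusted p of 0.351 by edgeR.

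*Plxnd1* (ENSMUSG00000030123, chr6:115954811-115995005, minus strand), a plexin of endothelial cells that receives SEMA3C through neuropilins, was at 154, 25.4 and 115 in WT PCs and at 116, 105 and 128 in KO PCs. In VMs it was at 82.5, 113 and 69.5 in WT and at 67.9, 69.3 and 71.8 in KO. The KO groups did not overlap, and WT PC replicate 2 was again the lowest library, with 13 counts. The log2 difference was 0.74 ± 0.23 in KO, past an unadjusted p of 0.05, which was lost with all 12 libraries in 1 fit, and with an adjusted p of 0.182 by edgeR. It was 0.16 ± 0.55 in WT, with an adjusted p of 0.959 by edgeR. Without WT PC replicate 2 it was 0.60 in WT, past an unadjusted p of 0.05 with an adjusted p of 0.429 by edgeR. Over both genotypes it was then 0.68 with an adjusted p of 0.0265 by edgeR, against 0.47 ± 0.30 and an adjusted p of 0.605 with all libraries. The same marker sums as for *Nrp2* apply here, and the part of these cells in the *Plxnd1* values was not tested.

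The 8 members tested were counted against all genes in the same fits. Because the members were chosen with earlier results of these data known, the shares describe these members and are no test of the family. In WT, 2 of 8 members (*Sema3a* and *Sema3c*) were higher in PCs at an unadjusted p under 0.05, against 5.14% of all genes tested, and 1 passed the adjustment, against 0.110%. In KO, 4 of 8 (*Sema3a*, *Nrp2*, *Plxna2* and *Plxnd1*) were higher at an unadjusted p under 0.05, against 7.11%, and 2 passed the adjustment, against 0.872%. Over both genotypes 5 of 8 were higher before adjustment, against 8.54%, and 2 passed it, against 1.47%. None of the 8 was lower in PCs at an unadjusted p under 0.05 in any of the 3 comparisons. PC libraries did not overlap VM libraries and were higher for *Sema3a*, *Sema3c* and *Sema3d* in WT (3 of 8 members, against 7.29% of genes), for *Sema3a*, *Nrp2*, *Plxna2* and *Plxnd1* in KO (4 of 8, against 8.66%), and for *Sema3a* alone over both genotypes (1 of 8, against 1.40%). The median log2 difference of the 8 members was 0.58 in WT, 0.74 in KO and 0.91 over both genotypes, while that of all genes was 0.00, 0.01 and 0.02.

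**Figure D2:**
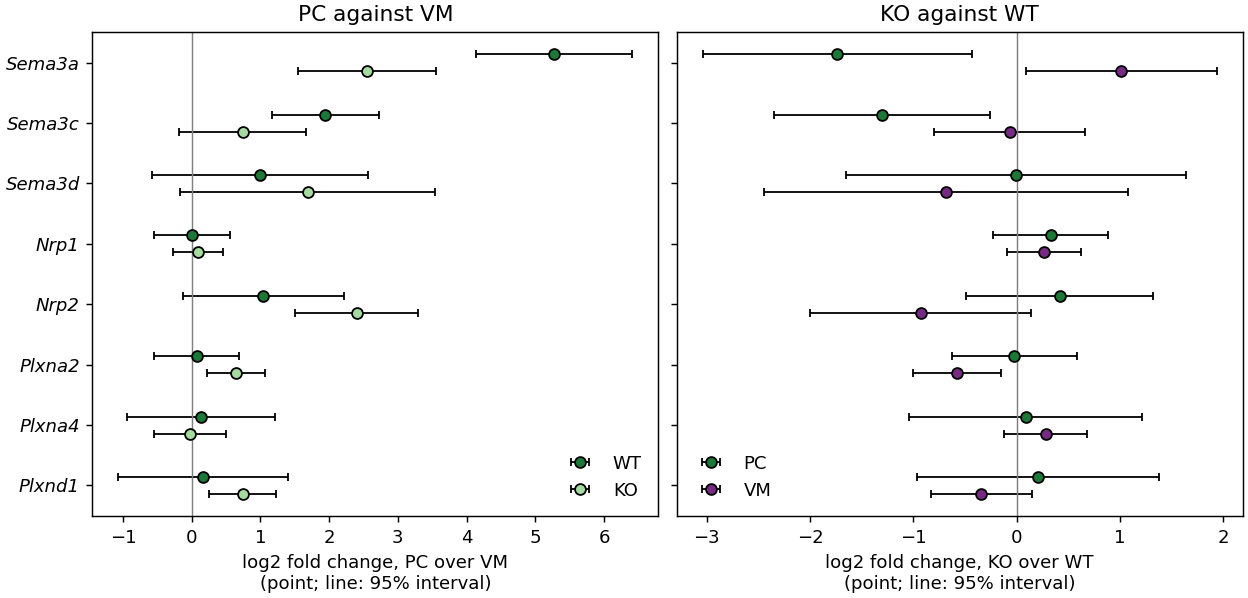
Log2 fold changes of the 8 members tested with their 95% intervals from edgeR's fits, on the left PC over VM in WT and KO and on the right KO over WT in PCs and VMs. *Sema3a* lies at 5.27 in WT and 2.55 in KO on the left, and on the right at -1.74 in PCs and 1.01 in VMs, while the intervals of *Nrp1* include 0 in all 4 comparisons.

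Loss of *Ncam-1* was compared within each cell type. In PCs, *Sema3a* was lower in KO, at 117 ± 96.4 normalized counts against 402 ± 208 in WT (SD, n = 3 each). The log2 difference was -1.74 ± 0.58 (95% interval -3.04 to -0.44), past an unadjusted p of 0.05 but with an adjusted p of 0.993 by edgeR over 11754 genes. The groups overlapped, since KO PC replicate 3 at 228 was above WT PC replicate 1 at 174, and the exact permutation test gave p = 0.2. *Sema3c* was at 118 ± 63.2 in KO PCs and 300.2 ± 127 in WT PCs, and its log2 difference of -1.31 ± 0.47 (-2.35 to -0.26) also had an adjusted p of 0.993 by edgeR, with overlap between the groups and an exact permutation p of 0.2. These 2 of 8 members were lower at an unadjusted p under 0.05, against 2.70% of all genes, and 0 of the 11754 genes passed the adjustment by edgeR, with 378 at an unadjusted p under 0.05. DESeq2's Wald test passed 7 genes and voom 1, without *Sema3a* and *Sema3c* (adjusted p of 0.559 and 0.746 by DESeq2). With no filter on low counts, 132 of 21610 genes passed by edgeR, *Sema3a* and *Sema3c* among them with adjusted p of 0.000169 and 0.0344. For the other 6 members the log2 differences lay between -0.02 and 0.41, all with an adjusted p of 0.993 or more by edgeR and with intervals that include 0.

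*Cntn2* and the Purkinje marker sum were low in KO PC replicates 1 and 2, as *Sema3a* and *Sema3c* were. The ratio of *Sema3a* to *Cntn2* normalized counts, chosen after the values were seen and given as a description, was 0.735, 1.0 and 1.09 in WT PCs and 1.77, 1.10 and 0.504 in KO PCs, so that KO values lay on both sides of the WT range. For *Sema3c* the ratio was 0.720, 0.939 and 0.576 in WT and 1.27, 2.64 and 0.384 in KO, a wider spread than for *Sema3a*. When KO PC replicates 1 and 2 were left out, the *Sema3a* difference between KO and WT was -0.79 ± 0.71 on the log2 scale and that of *Sema3c* -0.75 ± 0.62, on 1 KO library whose spread is assumed to be that of the WT PCs, so that these are given as values and not as tests. Leaving out 1 library put *Sema3a* short of an unadjusted p of 0.05 when it was WT PC replicate 3 (-1.36), KO PC replicate 1 (-1.47) or KO PC replicate 2 (-1.40), and *Sema3c* when it was KO PC replicate 1 (-0.95).

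In VMs, *Sema3a* stood the other way, at 20.6 ± 2.84 in KO and 10.1 ± 0.416 in WT (SD, n = 3 each). The groups did not overlap, and the log2 difference was 1.01 ± 0.44 (95% interval 0.09 to 1.94), past an unadjusted p of 0.05 but with an adjusted p of 0.931 by edgeR over 10737 genes. It stayed past the unadjusted threshold without KO VM replicate 3 and fell short of it without any other of the 6 libraries, in a range from 0.94 to 1.13. *Plxna2* was lower in KO VMs without overlap, by -0.58 ± 0.20 on the log2 scale (-1.004 to -0.15), past an unadjusted p of 0.05 but with an adjusted p of 0.931 by edgeR. Without WT VM replicate 1 it was -0.37 and without KO VM replicate 3 -0.43, both short of that threshold. The exact permutation test gave p = 0.1 for each, the smallest that 3 against 3 allow. Of the 8 members, 1 was thus higher, against 1.87% of all genes, and 1 lower, against 3.25%. *Nrp2* was at 15.2 ± 8.85 in KO and 29.5 ± 17.97 in WT VMs, a log2 difference of -0.93 ± 0.51 with an adjusted p of 0.959 by edgeR. The endothelial marker sum was 83.4 to 286 in KO VMs and 232 to 458 in WT VMs, and 8 of 9 endothelial markers tested had log2 fold changes below 0 (median -0.75). So did 5 of 7 markers of smooth muscle cells and pericytes (median -0.77), 5 of 6 of fibroblasts (-0.46) and 3 of 4 of macrophages (-0.76). The part of these cells in the *Nrp2* value was not tested.

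The genotype difference of *Sema3a* in PCs minus that in VMs was -2.76 ± 0.78 (log2, 95% interval -4.42 to -1.10), past an unadjusted p of 0.05 but with an adjusted p of 0.999 in edgeR's fit of all 12 libraries, where it ranked 5th of 11323 genes by p. With no filter on low counts the adjusted p was 0.000438 by edgeR, and without KO PC replicates 1 and 2 the difference was -1.81 ± 0.71, on 1 KO PC library whose spread is taken from the other groups. At an unadjusted p under 0.05 were 1 of 8 members and 2.90% of all genes. For *Sema3c* this difference was -1.24 ± 0.67 (95% interval -2.68 to 0.19) and for *Nrp2* 1.35 ± 0.71 (-0.16 to 2.86), and the intervals of the other 5 members in that fit also include 0. The endothelial markers lay on the side of *Nrp2* here, with 9 of 9 tested above 0 and a median of 1.03. So did 5 of 7 markers of smooth muscle cells and pericytes, with a median of 1.48, while the fibroblast and macrophage medians were -0.08 and 0.05.

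Levels were set against each other per kb of exon. *Nrp1* was the highest member in each group, at 54.3 ± 9.27 normalized counts per kb in WT PCs, 68.3 ± 15.2 in KO PCs, 52.8 ± 11.1 in WT VMs and 63.7 ± 8.63 in KO VMs (SD, n = 3). In WT PCs it was followed by *Sema3c* at 42.0 ± 17.7, *Sema3a* at 29.02 ± 15.0, *Plxna2* at 14.9 ± 3.27, *Plxnd1* at 13.4 ± 9.03, *Plxna4* at 10.1 ± 6.01, *Nrp2* at 5.18 ± 1.36, *Sema3d* at 1.63 ± 0.205 and *Sema3f* at 0.511 ± 0.443. Ranges of neighbours in this order overlapped down to *Nrp2*, and *Nrp2*, *Sema3d* and *Sema3f* were apart from one another. In the other 3 groups *Nrp1* stood clear of the next member. *Sema3a* was 6th in KO PCs at 8.43 ± 6.95 normalized counts per kb, with *Plxna4* above and *Nrp2* below both overlapping it. In WT VMs it was 8th at 0.728 ± 0.0300, between *Sema3d* and *Sema3f* and overlapping both, and in KO VMs 6th at 1.49 ± 0.204, overlapping *Nrp2* below it but apart from *Plxna2* at 9.36 ± 1.78 above it. *Sema3c* was the highest ligand in all 4 groups on this scale, although it overlapped *Sema3a* in WT PCs and in KO PCs.

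**Figure D3:**
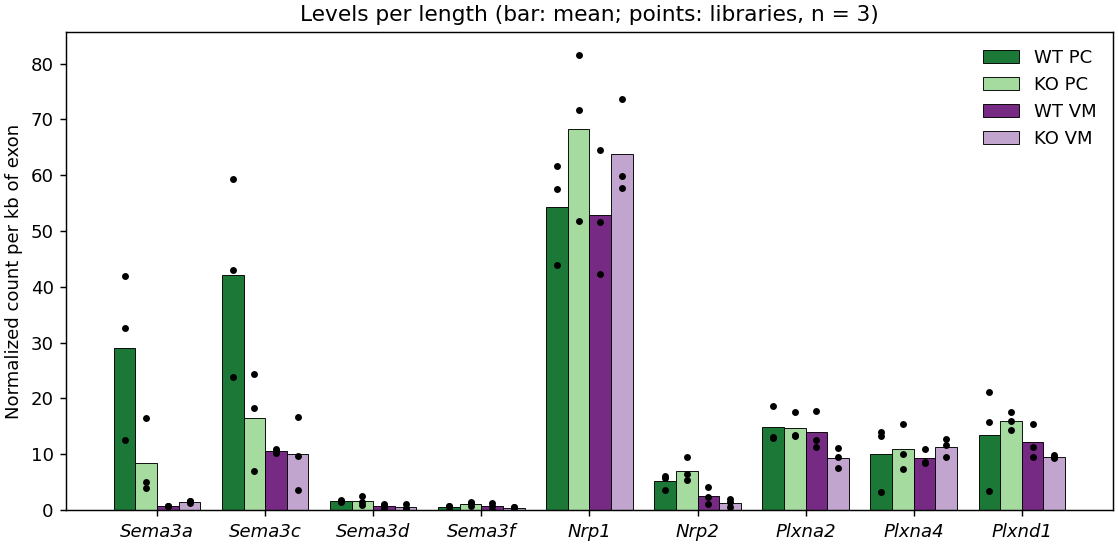
Normalized counts per kb of exon for the 9 members, with bars for the mean of 3 libraries in each group and points for the libraries. *Nrp1* is the highest bar in every group, between 52.8 and 68.3, and *Sema3c* and *Sema3a* come near it only in WT PCs, at 42.0 and 29.02.

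For the members that passed the adjustment, *Sema3a* and *Nrp2*, the 5 genes with the most similar pattern over the 12 libraries were taken, by the mean absolute difference of log2(normalized count + 2) after centring each gene. There were 8099 genes with a mean above 20 to compare. Nearest to *Sema3a* were *Slit2* at 0.37, *Etv1* at 0.50, *Sbk3* at 0.53, *Spock2* at 0.54 and *Scn10a* at 0.56, where the median distance of all genes was 1.80. *Slit2* encodes another secreted guidance cue, *Etv1* an ETS transcription factor known from fast-conducting cardiomyocytes, and *Scn10a* a voltage-gated sodium channel. *Slit2* was at 284, 737 and 1438 normalized counts in WT PCs and at 77.3, 105 and 432 in KO PCs, and in VMs at 12.8 to 36.8. As with *Sema3a*, KO PC replicates 1 and 2 were low and replicate 3 lay within the WT range. Nearest to *Nrp2* were *Cdh5* at 0.27, *Cald1* at 0.29, *Adgrf5* at 0.30, *Ptprb* at 0.31 and *Adamts5* at 0.32, against a median of 1.03. *Cdh5*, which encodes the cadherin of endothelial junctions and is 1 of the 10 endothelial markers, was at 199, 142 and 149.7 in WT PCs, at 411, 227 and 165 in KO PCs, at 96.6, 48.9 and 65.8 in WT VMs and at 29.7, 65.5 and 63.7 in KO VMs. *Ptprb* encodes a phosphatase of endothelial cells.

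**Figure D4:**
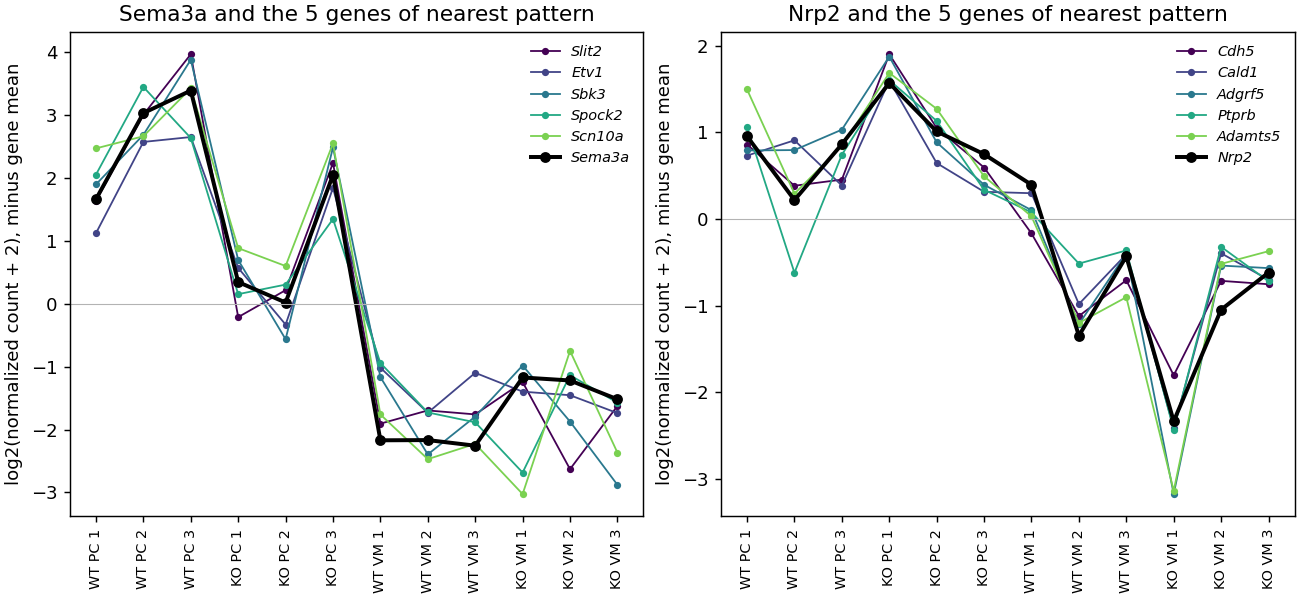
Log2(normalized count + 2) of *Sema3a* (left) and *Nrp2* (right), in black, and of the 5 genes nearest to each, in colour, over the 12 libraries, each gene minus its own mean; lines only join the points of 1 gene. On the left KO PC replicates 1 and 2 lie below the other PC libraries, and on the right KO PC replicate 1 is the highest library and KO VM replicate 1 the lowest.

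The other genes of the pathway were counted from 4 lists, also chosen with earlier results of these data known. The counts stand beside the 5.14%, 7.11% and 8.54% of all genes that were higher in PCs at an unadjusted p under 0.05 in WT, in KO and over both genotypes. Of the 5 remaining class 3 semaphorins and class A plexins, *Sema3b* and *Plxna1* could be tested in every comparison and neither had p under 0.05. *Sema3b* was at 15.8 to 52.1 normalized counts over the 12 libraries and *Plxna1* at 36.6 to 64.0. *Plxna3* was at no more than 1.48, *Sema3e* reached 11.4 in KO PC replicate 2 and was at no more than 3.76 elsewhere, and *Sema3g* reached 21.1 in KO PC replicate 1 and was at no more than 7.51 elsewhere. Among semaphorins of other classes and plexins B and C, none of 11 tested differed between PCs and VMs in WT at p under 0.05, and 3 of 10 were higher in KO PCs. These were *Sema6a* by 1.48 ± 0.55, *Sema6d* by 0.64 ± 0.20 and *Sema7a* by 2.86 ± 0.91 on the log2 scale, with adjusted p of 0.330, 0.188 and 0.199 by edgeR. *Sema6a* and *Sema7a* overlapped between the KO groups, and *Sema7a* had 0, 8 and 1 counts in KO VMs. Over both genotypes *Sema6d* and *Sema7a* were the 2 of 9 with p under 0.05, both higher in PCs.

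Of 24 intracellular effectors, 16 were tested in each comparison. *Dpysl2*, a collapsin response mediator protein, was at 52.3, 87.8 and 120 normalized counts in WT PCs, at 79.1, 51.8 and 72.2 in KO PCs and at 1.41 to 16.0 in VMs. Its log2 difference between PCs and VMs was 2.73 ± 0.47 in WT (adjusted p = 0.154) and 2.73 ± 0.49 in KO (adjusted p = 0.0159) by edgeR, and 2.75 ± 0.37 over both genotypes (adjusted p = 0.00141). *Dpysl3*, of the same family, was higher in PCs by 1.15 ± 0.22 over both genotypes (adjusted p = 0.0156 by edgeR). These were the 2 of 16 at p under 0.05 in WT. In KO *Cdk5*, a kinase that phosphorylates these proteins, was added to them, by 2.06 ± 0.54 (adjusted p = 0.1 by edgeR), and over both genotypes *Farp1*, which binds class A plexins, was at 1.13 ± 0.44 and *Cdk5* at 1.16 ± 0.34. *Cdk5* was at 16.8 to 29.9 in PCs and at 12.6 to 20.6 in WT VMs but at 5.66 to 7.70 in KO VMs, lower than in WT VMs by -1.34 ± 0.52 (adjusted p = 0.931 by edgeR). Its genotype difference in PCs minus that in VMs was 1.82 ± 0.67 (adjusted p = 0.999 by edgeR), past an unadjusted p of 0.05 like the former. In KO VMs *Cdk5* had only 4, 6 and 5 counts, on which these differences rest in part. The median of the 16 effectors was 0.04 in WT, 0.17 in KO and 0.13 over both genotypes.

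Of 16 co-receptors, VEGF partners and processing enzymes, 2 of 11 tested in WT and 6 of 10 in KO were higher in PCs at p under 0.05, against 5.14% and 7.11% of all genes. *Cntn2*, which the sort selects for, was 1 of them in each. *Flt1*, a VEGF receptor, was higher by 1.12 ± 0.38 in WT and 1.71 ± 0.38 in KO, with adjusted p of 0.670 and 0.0417 by edgeR. In KO the others were the VEGF receptors *Kdr* (1.92 ± 0.52) and *Flt4* (3.03 ± 0.88) and the proprotein convertases *Pcsk5* (3.42 ± 0.99) and *Pcsk6* (2.56 ± 0.63), with adjusted p of 0.0775 to 0.148 by edgeR. The KO VM values stand on few counts, with 1, 1 and 2 for *Flt4*, 0, 2 and 1 for *Pcsk5* and 2, 2 and 6 for *Pcsk6*. Over both genotypes 7 of 11 were higher, with *Vegfc*, a ligand of FLT4 and NRP2, added at 1.51 ± 0.56. *Vegfc* was the 1 of 11 that differed between KO and WT PCs at p under 0.05, at 41.9, 31.2 and 24.3 in WT and 5.27, 5.05 and 14.03 in KO, by -1.92 ± 0.68 (adjusted p = 0.993 by edgeR). Its KO PC values stand on 3, 4 and 21 counts. *Kdr* was the 1 of 7 past that threshold between KO and WT VMs, by -0.91 ± 0.42 (adjusted p = 0.931 by edgeR). The groups overlapped, at 11.3, 70.6 and 74.1 in KO VMs and 157, 66.8 and 74.7 in WT VMs. KO VM replicate 1, the lowest, had 8 counts of *Kdr*. Sums over markers of endothelial cells, fibroblasts, macrophages, and smooth muscle cells and pericytes were higher in PCs without overlap in both genotypes. So was *Flt1*. In KO *Flt4* and *Nrp2* were also higher without overlap, whereas *Kdr* overlapped. In WT *Kdr*, *Flt4* and *Nrp2* overlapped between PCs and VMs. The part of the cells marked in these sums in the values of these genes was not tested.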

How the data were processed

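RNA of sorted cells was amplified, sequenced as 50 bp read pairs, mapped to mm10 with STAR 2.5.0c and counted on genes with HTSeq 0.6.0, according to the labels. The authors deposited 1 file per library with the read pairs per gene as counts, not normalized. Whether counting used strand is not given in the sources used here. Groups and replicate numbers came from the sample titles. The members and lists were chosen with earlier results of these data known. Positions and exon lengths came from GENCODE release M21 (GRCm38), which may differ from the annotation counted on. No gene overlapping the exons of a member had a count.

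Comparisons were made in R 4.3.3 with edgeR 4.0.16 (TMM, glmQLFit, glmQLFTest, two-sided) on genes with a mean normalized count above 5 in the libraries fitted, with Benjamini-Hochberg adjustment over all of them. Pairs of groups used their 6 libraries, and the comparison over both genotypes and the genotype by cell type difference used all 12. Standard errors of the edgeR fits are the absolute log2 fold change over the square root of the quasi-likelihood F statistic. The 95% intervals were built from them with a t quantile. Exact permutation tests were two-sided, on the difference of mean log2(normalized count + 2). Genes named besides the members are those of the lists with an unadjusted p under 0.05 in a comparison, those with the nearest pattern, *Ncam1* and *Cntn2*, and, of the list of the members' own families, all genes. Alternatives were DESeq2 1.42.0, its size factors in edgeR, limma 3.58.1 voom with quality weights, other filters, mitochondrial genes left out, a replicate block, all 12 libraries in 1 fit and leaving out each library. The omission of KO PC replicates 1 and 2 together was chosen after seeing the data. The fits were also run on simulated counts with the same dispersion for every gene. That setting does not cover libraries that stand apart, such as WT PC replicate 2.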

Additional observations from a re-analysis of the deposited data

Results flagged for a closer look

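The difference of *Sema3a* between KO and WT was not the same in the cell types at an unadjusted p under 0.05 of the interaction term. It was -1.74 ± 0.58 on the log2 scale in PCs (402 to 117 normalized counts, means of 3 libraries) and 1.01 ± 0.44 in VMs (10.1 to 20.6), and the difference was -2.76 ± 0.78 past an unadjusted p of 0.05 but with an adjusted p of 0.999 in edgeR's fit across all genes. With no filter on low counts the adjusted p was 0.000438 by edgeR. The difference ran from -3.74 to -2.39 when each of the 12 libraries was left out in turn, past an unadjusted p of 0.05 each time. It was -1.81 ± 0.71 without KO PC replicates 1 and 2, a value that rests on 1 KO PC library whose spread is taken from the other groups. The libraries left out there were low in *Cntn2*, and the VM values rest on 11 to 17 counts per library.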

How the results depend on the processing

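Over 8 members and 6 comparisons, 779 log2 fold changes were computed under alternatives. Of these 712 kept their side of an unadjusted p of 0.05, 33 lost it, 34 gained it, and none that was past it changed sign. The number of members with p under 0.05 was 2 in WT PC against WT VM, 4 in KO PC against KO VM, 5 over both genotypes, 2 in KO PC against WT PC, 2 in KO VM against WT VM and 1 in the interaction. In KO VM against WT VM it became 1 with DESeq2's Wald test, 1 with the replicate block and 1 in 1 fit of all 12 libraries, *Sema3a* being lost in each, and 3 with no filter on low counts, *Nrp2* being gained. In the interaction it became 2 with voom, 3 with no filter on low counts and 2 with the replicate block. Without KO PC replicates 1 and 2 it became 3 over both genotypes and 0 in KO PC against WT PC, with 1 KO PC library left and its spread taken from the other libraries. *Plxnd1* in KO PC against KO VM was lost in 1 fit of all 12 libraries, which also took *Sema3a* and *Nrp2* there to an adjusted p of 0.135, and *Plxna2* over both genotypes was lost without mitochondrial genes. Leaving out 1 library gave 2 to 5, 4 to 6, 3 to 6, 0 to 2, 0 to 3 and 1 to 3, in the same order. The 5 arose without WT PC replicate 2, and the 0 without KO PC replicate 1 and without WT VM replicate 1. *Sema3a* in KO VM against WT VM kept its sign in all 6 omissions but had p under 0.05 in 1 of them, and *Plxna2* in 4 of them. *Sema3a* in PC against VM over both genotypes had an adjusted p under 0.05 in 12 of 12 omissions, *Nrp2* in 6 of 12. In KO PC against WT PC, the fit with no filter was the 1 of 8 with all libraries to give *Sema3a* and *Sema3c* an adjusted p under 0.05 (0.000169 and 0.0344), as it did for *Sema3a* in the interaction (0.000438). The cause was not tested.

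With the replicate block the counts were otherwise 3, 6, 5 and 2 in the first 4 comparisons, in the order above. *Sema3c* in KO PC against KO VM was gained by the block (0.76 ± 0.25, adjusted p = 0.184 by edgeR), being higher in PCs within each of the 3 replicate numbers. Libraries with the same number correlated, over 8100 genes after centring each group, at 0.207, 0.0813 and 0.150 between WT PCs and WT VMs and at -0.00956, 0.121 and 0.0185 between the KO groups. Every WT library correlated best with its own number, and 1 of the 3 in KO. The libraries were taken to share only a number.

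The mean levels of the members moved by less than 1 SD in all 72 recomputations with DESeq2's size factors or without mitochondrial genes. *Sema3a* in VMs rests on 11 to 17 counts per library and *Sema3d* and *Sema3f* on fewer than 34 anywhere, and read pairs carried no molecular identifiers, so that counts may hold copies.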
